A study of Mus musculus with 10 samples.

Results

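The proteasome genes described here are the 47 of 21222 genes in a mouse heart RNA-seq count table whose symbol begins with Psma, Psmb, Psmc, Psmd, Psme or Psmg followed by a digit and whose counts sum to at least 50 over 10 libraries. A further matching row, the pseudogene Psmb5-ps, stayed under that minimum. The libraries were made from left ventricle of male C57BL/6J mice at 6 months. They form 3 groups: 3 libraries of genotype CaNrf2-High (TGH), 3 of genotype CaNrf2-Low (TGL) and 4 of non-transgenic mice (NTG). CaNrf2 is read here as a constitutively active form of Nrf2, the transcription factor that switches on antioxidant genes. The promoter that drives the transgene is not given in the sources used here, and nothing in the labels says whether a line goes back to 1 founder. The 2 lines together are called TG. The labels do not say that each library is a separate mouse, so p-values measure the spread between these libraries.

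The proteasome is the protease that breaks down ubiquitin-tagged proteins. Its barrel-shaped 20S core is built of outer alpha rings, which gate entry, and inner beta rings, which hold the cutting sites, and the 19S cap (a base with ATPases and a lid) recognises, unfolds and feeds in the substrate. In immune signalling other beta subunits and the 11S activator replace parts of this machine and change which peptides it makes. Nrf1 (Nfe2l1) is known to raise proteasome genes when proteasome capacity falls short, and Nrf2 is known in mouse to raise some subunits, Psmb5 among them. In the heart muscle cell, the proteasome turns over damaged and sarcomeric proteins.

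Read counts totalled 7076319 to 10896535 per library, and the 47 genes held 0.433 to 0.47% of them in TGH, 0.402 to 0.426% in TGL and 0.38 to 0.389% in NTG. Levels are given as CPM, with each library scaled by its TMM factor. All 8 cardiomyocyte markers were abundant, with summed levels of 59700 to 64300 CPM in TGH, 69300 to 71800 CPM in TGL and 72400 to 75900 CPM in NTG. In TGH against NTG 6 of the 8 were lower, with Tnni3 first by adjusted p (log2 fold change -0.61 ± 0.08 SE, edgeR adjusted p = 9.96e-05). In the same comparison 1, Actc1, was higher (log2 fold change 0.59 ± 0.20 SE, edgeR adjusted p = 0.0381). In bulk tissue, fewer cells of a type and less RNA per cell cannot be told apart. Nfe2l2, the gene of Nrf2, stood at 254, 182 and 244 CPM in TGH, 156, 129 and 182 CPM in TGL, against 164, 145, 88.3 and 122 CPM in NTG. It rose in TGH against NTG (log2 fold change 0.80 ± 0.19 SE, edgeR adjusted p = 0.0078), and its value in TGL against NTG was 0.26 ± 0.19 (edgeR adjusted p = 0.456). Counts per gene do not tell transgene from native transcripts. In each group 1 library stood apart in the mean level of 16 heat shock genes (log2 CPM 7.67 in TGH 2 against 6.45 and 6.82 in the other TGH libraries, 8.29 in TGL 2 against 6.47 and 6.73 in the other TGL libraries, and 7.13 in NTG 2 against 8.04 to 8.39 in the other NTG libraries).

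Some proteasome genes were higher and others lower in the high line, while their sum after TMM scaling stayed nearly level, at 4200, 4080 and 4380 CPM in TGH, 4170, 4030 and 4150 CPM in TGL, against 4080, 4070, 4060 and 3930 CPM in NTG. As a share of unscaled counts, given above, the groups do not overlap and TGH is highest. The TMM factors that separate the 2 scales were 1.047 to 1.076 in TGH, 0.969 to 1.024 in TGL and 0.94 to 0.967 in NTG. In TGH against NTG 11 of the 47 genes rose and 6 fell at an adjusted p under 0.05 (edgeR quasi-likelihood test, Benjamini-Hochberg adjustment over 14511 genes). That is 36.2% of the members, beside 32.4% of all genes tested (16% higher and 16.4% lower), so the share of members called is near the background. All 47 passed the low-count filter, with 30 not called. Their median log2 fold change was 0.04, against -0.02 over all genes tested, and their median size of change regardless of sign was 0.20, against 0.28 over all genes. In 12 members every TGH library lay above every NTG library and in 7 below (backgrounds 19.3% and 19.6%, together 38.9%). In TGL against NTG 2 of the 47 rose and 0 fell (4.26%, beside 6.29% of all genes, 4.15% higher and 2.14% lower), and 8 lay above and 6 below NTG without overlap (backgrounds 10.8% and 9.44%, together 20.2%). At an unadjusted p under 0.05, 8 were higher and 3 lower in TGL against NTG, and DESeq2 called 2 and 0. The 2 comparisons share the 4 NTG libraries. In TGH against TGL 5 rose and 3 fell (17%, beside 9.64% of all genes, 5.53% higher and 4.11% lower), and 8 lay above and 9 below without overlap (backgrounds 14.5% and 13.9%, together 28.4%).

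The leave-one-out fits moved some of these counts, and the share of all genes called in those fits is not given. In TGH against NTG the 17 calls fell in every such fit, to between 10 and 15. They became 10 without TGH 1 and 11 without TGH 2. The TGL against NTG count became 1 without TGL 0. The 8 calls of TGH against TGL became 4 without TGH 1 or without TGL 1, and 5 without TGL 0 or without TGL 2, and also 5 with NTG 2 and TGL 2 both left out, an alternative chosen after seeing the data. Beside the leave-one-out fits and a fit with the replicate number as a block, 5 other settings were tried for each called proteasome gene: RLE scaling, DESeq2, no low-count filter, other groups in the fit, and NTG 2 and TGL 2 left out together. Where any of them ended a call, their number is given with the gene.

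**Figure D1:**
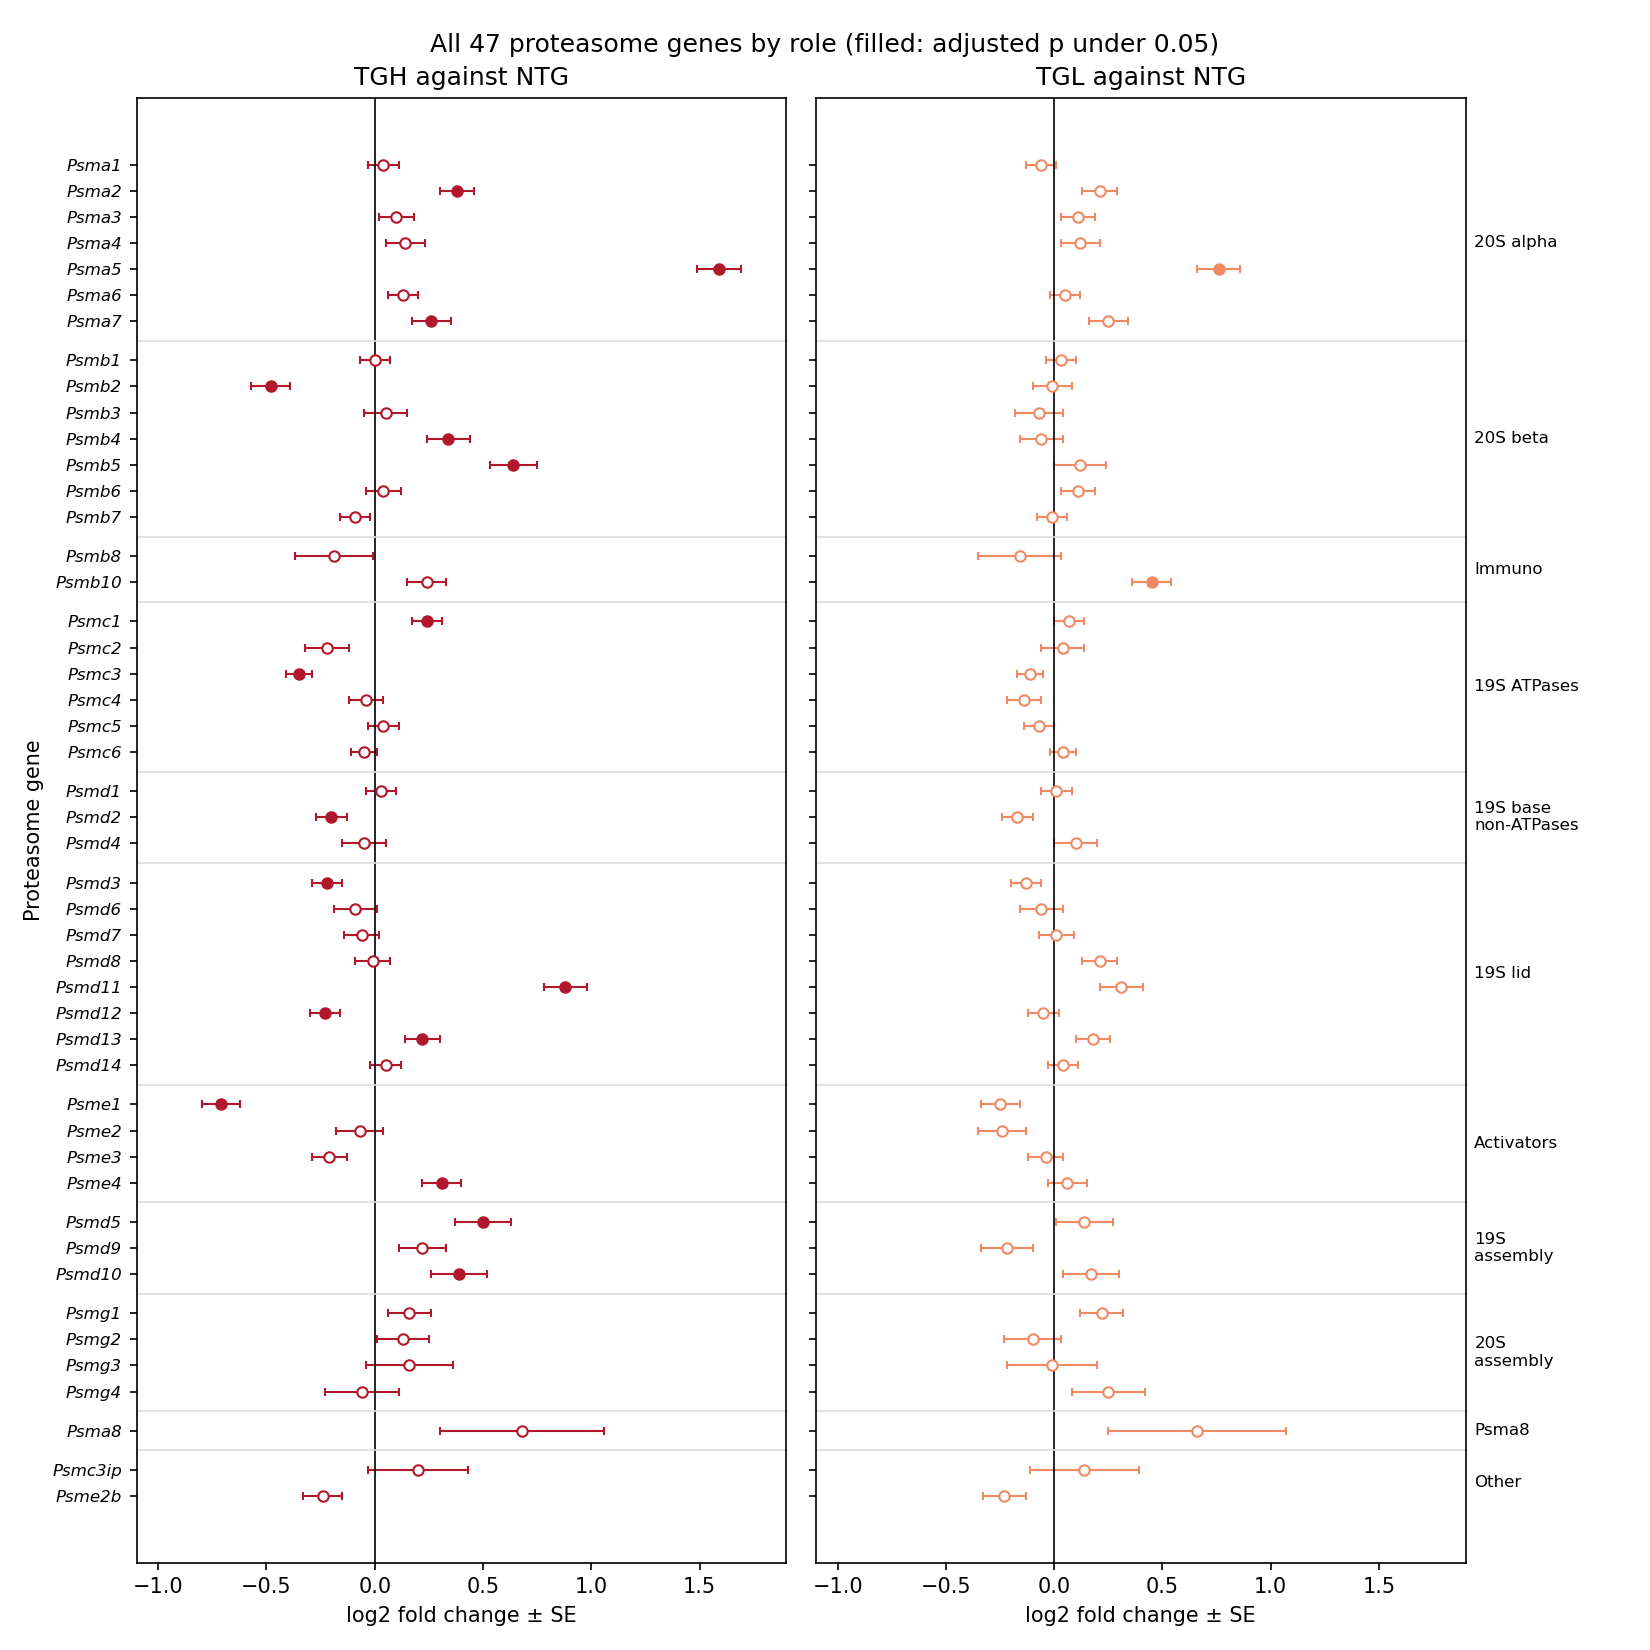
Log2 fold change with its standard error (horizontal axis) of all 47 genes, grouped by role down the page, for TGH against NTG (left) and TGL against NTG (right), with filled points for genes called at an adjusted p under 0.05. Psma5 lies furthest right in both panels (1.59 and 0.76), Psme1 furthest left in the TGH panel (-0.71), and most points lie near 0.

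The largest rise of a single gene, that of Psma5, lay in the alpha ring of the core. All 7 alpha genes were measured and 3 rose in TGH against NTG, with 0 lower and a median log2 fold change of 0.14. Over all genes tested 16% were higher and 16.4% lower. Summed over the ring, the level was 692, 708 and 689 CPM in TGH, 661, 599 and 651 CPM in TGL, against 579, 584, 580 and 576 CPM in NTG. The 3 groups do not overlap in this sum, and TGH averaged 1.20 times the level of NTG. The summed level of the 7 constitutive beta genes was 631, 662 and 673 CPM in TGH, 658, 633 and 669 CPM in TGL, against 670, 635, 632 and 646 CPM in NTG, with overlapping groups.

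Psma5 (ENSMUSG00000068749, GRCm38 chromosome 3, 108256926 to 108279974) encodes one of the 7 alpha-ring subunits. It stood at 62.4, 76.3 and 68.5 CPM in TGH, 40.6, 34.2 and 41.6 CPM in TGL, against 22.7, 24, 22.4 and 22.4 CPM in NTG. Every TGH library lay above every TGL library, and every TGL library above every NTG library. It rose 3.02-fold in TGH against NTG (log2 fold change 1.59 ± 0.10 SE, edgeR adjusted p = 2.99e-07) and 1.69-fold in TGL against NTG (0.76 ± 0.10, edgeR adjusted p = 0.000721). TGH exceeded TGL by a log2 difference of 0.83 ± 0.10 (edgeR adjusted p = 0.000438). All 3 calls were kept in each of the 10 fits that left out 1 library.

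Per kilobase of exon, Psma5 averaged 55.8 ± 5.62 CPM per kb in TGH and 31.3 ± 3.26 in TGL (SD, n = 3 each), against 18.5 ± 0.634 in NTG (SD, n = 4). On this length-scaled level the NTG value was the lowest of the alpha ring and lay within the spread of Psma3, at 20 ± 0.798 CPM per kb in TGH, 20.2 ± 1.64 in TGL and 18.7 ± 0.529 in NTG. The highest alpha gene in each group was Psma1, at 109, 102 and 106 CPM per kb in TGH, TGL and NTG. Psma5 supplied 11.1% of the ring's summed length-scaled level in TGH, 6.81% in TGL and 4.4% in NTG. The rank and these shares depend on exon length, the union of a gene's annotated exons. That length is 1239 bases for Psma5, 2846 for Psma3 and 2911 for Psma2. Both also depend on how reads were divided between Psma5 and the genes that share its sequence, given below. Transcript shares do not give the make-up of the assembled ring, in which each alpha subunit has its own place.

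**Figure D2:**
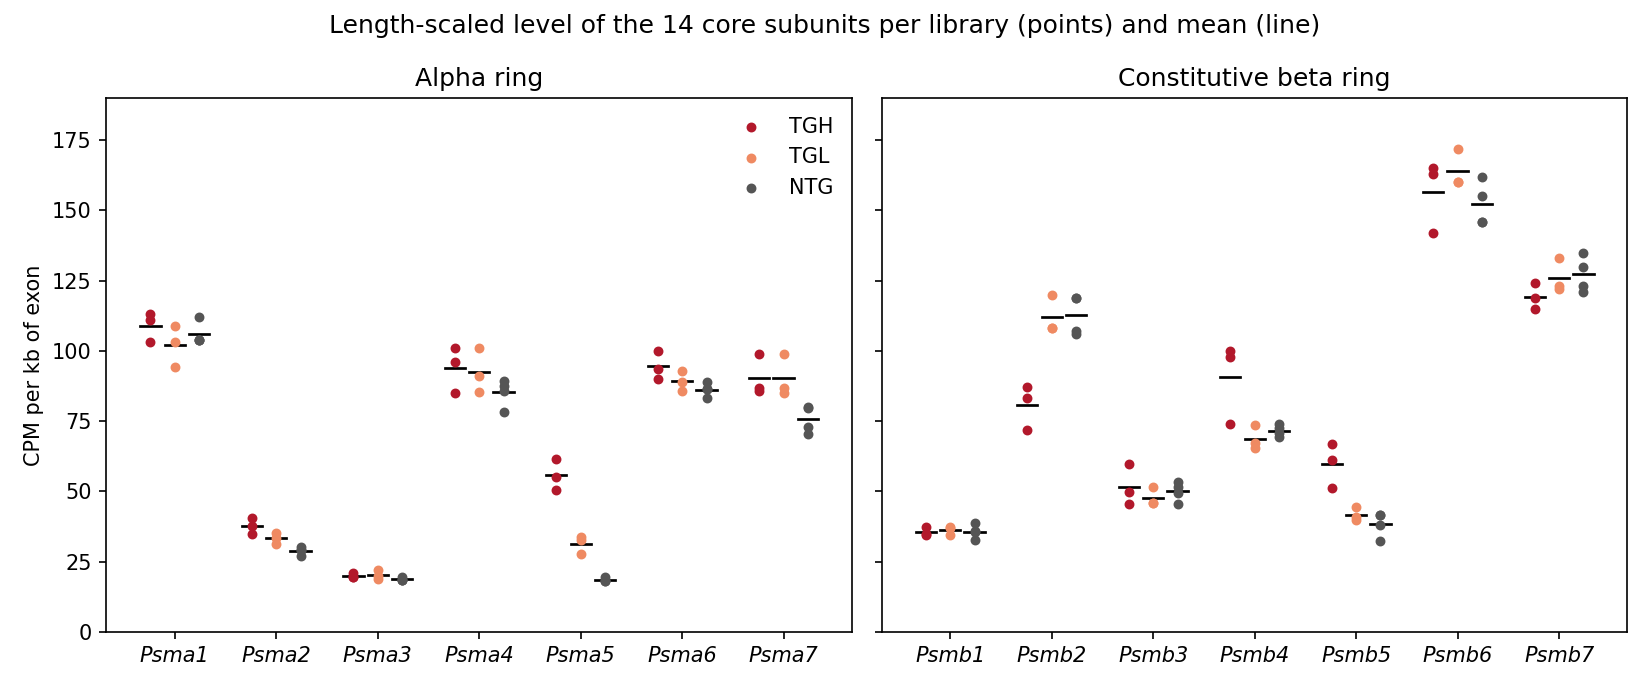
Level per length (CPM per kb of exon, vertical axis) of the 7 alpha and 7 constitutive beta genes in each library (points) with the group mean (line), TGH left, TGL middle, NTG right for each gene. Psma5 stands at 55.8, 31.3 and 18.5 on average in TGH, TGL and NTG, and Psmb2 at 80.7, 112 and 113.

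Psma5 shares 50% of the 50-base words of its transcripts with other annotated genes, mainly the predicted genes Gm8394 and Gm12989. Gm12989 stood at 26.1, 28.7 and 28.1 CPM in TGH, 16, 18 and 18.2 CPM in TGL, against 7.62, 11.3, 9.45 and 8.24 CPM in NTG. Gm8394 stood at 21, 26 and 27 CPM in TGH, 11.6, 13.9 and 14.8 CPM in TGL, against 9.23, 8.08, 8.73 and 8.24 CPM in NTG. Both copies thus ordered the groups as Psma5 did, without overlap, and how the counting divided reads between the 3 loci is uncertain. The sum of Psma5 and both copies was 2.99 times higher in TGH and 1.71 times higher in TGL than in NTG, beside 3.02 and 1.69 for Psma5 alone.

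**Figure D3:**
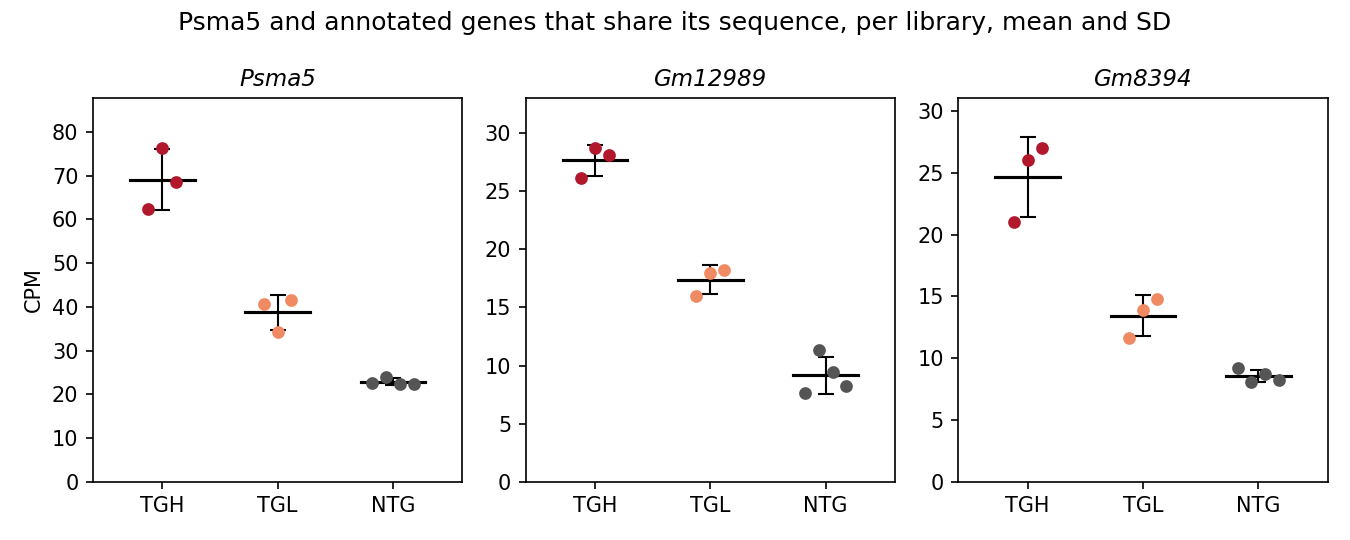
CPM (vertical axis) of Psma5 and of the predicted genes Gm12989 and Gm8394, which share its sequence, in each library (points) with group mean (line) and SD (bar), TGH left, TGL middle, NTG right. In all 3 panels the 3 groups are separate and TGH is highest.

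Psma2 and Psma7, alpha-ring subunits as well, moved less. Psma2 stood at 110, 118 and 101 CPM in TGH, 97.6, 91.5 and 103 CPM in TGL, against 78.5, 84.7, 88 and 85.4 CPM in NTG. The TGH and TGL libraries overlapped and all lay above NTG. It rose by 0.38 ± 0.08 on the log2 scale in TGH against NTG (edgeR adjusted p = 0.00279), a call kept in all 10 leave-one-out fits. Psma7 stood at 101, 102 and 117 CPM in TGH, 117, 102 and 100 CPM in TGL, against 85.9, 94, 94.6 and 83 CPM in NTG, again with both lines above NTG. It rose by 0.26 ± 0.09 in TGH against NTG (edgeR adjusted p = 0.0373) and had almost the same value in TGL (0.25 ± 0.09, edgeR adjusted p = 0.109). The TGH call of Psma7 was lost without TGH 1, TGH 2, NTG 0 or NTG 3, with adjusted p from 0.0323 to 0.129 over the leave-one-out fits. The other 4 alpha genes lay between 0.04 (Psma1) and 0.14 (Psma4) and were not called. Psma8, the alpha subunit of testis proteasomes, stood low at 0.973 to 2.08 CPM in TGH, 1.09 to 2.07 CPM in TGL and 0.572 to 1.43 CPM in NTG, and was not called (0.68 ± 0.38, edgeR adjusted p = 0.194).

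In the beta ring, genes moved in both directions. Of the 7 constitutive beta genes 2 rose and 1 fell in TGH against NTG (median log2 fold change 0.04). The background of that comparison was 16% higher and 16.4% lower. None was called in TGL against NTG (0 by edgeR, 0 by DESeq2 and 0 at an unadjusted p under 0.05), where edgeR called 6.29% of all genes tested. Psmb5 (ENSMUSG00000022193, GRCm38 chromosome 14, 54614119 to 54618022) encodes the subunit with the chymotrypsin-like cutting site, the target of bortezomib. It stood at 46.1, 60 and 55 CPM in TGH, 40, 36.8 and 35.8 CPM in TGL, against 37.3, 37.4, 34.3 and 29.1 CPM in NTG. TGH lay above both other groups, while TGL and NTG overlapped. It rose 1.56-fold in TGH against NTG (0.64 ± 0.11, edgeR adjusted p = 0.00121) and had 0.12 ± 0.12 in TGL against NTG (edgeR adjusted p = 0.58). TGH exceeded TGL by 0.52 ± 0.12 (edgeR adjusted p = 0.0192), which was lost without TGH 1, TGH 2, TGL 1 or TGL 2 (adjusted p from 0.0103 to 0.0881 over the leave-one-out fits) and in 1 of the 5 other settings, with NTG 2 and TGL 2 left out together (0.056). Psmb5 shares 54.1% of its 50-base words with Gm3375, Mir686 and Psmb5-ps, so its counts are uncertain to that extent.

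Psmb2 (ENSMUSG00000028837, GRCm38 chromosome 4, 126677630 to 126709714) and Psmb4 encode beta-ring subunits without a cutting site. Psmb2 stood at 74.8, 61.7 and 71.4 CPM in TGH, 103, 92.6 and 92.8 CPM in TGL, against 91.6, 90.7, 102 and 103 CPM in NTG. Only TGH was set apart, below the overlapping TGL and NTG libraries. It fell by 0.48 ± 0.09 on the log2 scale in TGH against NTG (edgeR adjusted p = 0.0016) and by 0.47 ± 0.09 in TGH against TGL (edgeR adjusted p = 0.00866), and both calls were kept in all leave-one-out fits. Its share of the beta ring's summed length-scaled level was 13.6% in TGH, 18.8% in TGL and 19.2% in NTG, beside 10%, 6.99% and 6.54% for Psmb5. Psmb4 stood at 87.6, 116 and 119 CPM in TGH, 77.3, 79.6 and 87.1 CPM in TGL, against 83.7, 82, 85.7 and 87.4 CPM in NTG, with TGH 0 close to the other groups and TGH 1 and TGH 2 well above them. It rose in TGH (0.34 ± 0.10 against NTG, edgeR adjusted p = 0.0215; 0.40 ± 0.11 against TGL, edgeR adjusted p = 0.0375). The call against NTG was lost without TGH 1, TGH 2 or NTG 1 and the one against TGL without TGH 1, TGH 2, TGL 0, TGL 1, NTG 0 or NTG 1 (adjusted p up to 0.0998 and 0.144). The call against TGL was also lost with other groups in the fit (0.0851). The remaining beta genes lay between -0.09 (Psmb7) and 0.05 (Psmb3) in TGH against NTG, among them Psmb6 and Psmb7, which carry the other constitutive cutting sites.

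Promoters were examined for the words of an antioxidant response element, the DNA site of Nrf2 and its partners. The RefSeq table on GRCm38.p6 (250 bases before to 50 after a gene's start) held windows for 39 of the 47 members. The motif TGACNNNGC, searched on both strands, was in 6 of those 39 genes (15.4%), beside 14% of the 27025 genes in the table. Its variant TGAGNNNGC, which differs in the fourth letter so that no word is both, was in 13 (33.3%), beside 19.8%. Either motif was in 17 (43.6%), beside 30.8% of all genes. Among the most changed members Psmb5 held TGACNNNGC 47 bases before its start, Psma5 held TGAGNNNGC on the opposite strand 8 bases after its start, and Psmd11 and Psme1 held neither. A match in such a short motif is a description of the letters and not of a bound site. The 4 windows are shown because they belong to the core gene with the largest rise, the cap gene with the largest rise, the core's main cutting subunit and the gene with the largest fall, in lower case with motif matches in capitals and read on the gene's own strand. They lie at chr3:108256676-108256975 (+) for Psma5, chr14:54617946-54618245 (-) for Psmb5, chr11:80428365-80428664 (+) for Psmd11 and chr14:55578244-55578543 (+) for Psme1.
Psma5: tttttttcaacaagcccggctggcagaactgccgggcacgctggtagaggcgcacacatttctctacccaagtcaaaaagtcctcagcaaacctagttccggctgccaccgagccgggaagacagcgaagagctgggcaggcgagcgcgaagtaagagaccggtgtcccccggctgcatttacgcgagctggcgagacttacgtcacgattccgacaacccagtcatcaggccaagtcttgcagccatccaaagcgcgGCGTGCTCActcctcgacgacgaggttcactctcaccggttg
Psmb5: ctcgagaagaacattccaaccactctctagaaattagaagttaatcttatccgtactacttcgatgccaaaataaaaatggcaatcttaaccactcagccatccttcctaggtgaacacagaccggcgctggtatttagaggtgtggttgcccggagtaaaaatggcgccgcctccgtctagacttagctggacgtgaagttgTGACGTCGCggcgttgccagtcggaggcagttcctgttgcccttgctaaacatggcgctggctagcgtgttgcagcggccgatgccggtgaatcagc
Psmd11: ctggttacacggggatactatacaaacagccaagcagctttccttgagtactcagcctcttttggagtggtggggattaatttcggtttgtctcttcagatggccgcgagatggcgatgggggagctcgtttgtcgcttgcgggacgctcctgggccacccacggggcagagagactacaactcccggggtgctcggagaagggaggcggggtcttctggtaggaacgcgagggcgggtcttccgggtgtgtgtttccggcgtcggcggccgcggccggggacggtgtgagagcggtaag
Psme1: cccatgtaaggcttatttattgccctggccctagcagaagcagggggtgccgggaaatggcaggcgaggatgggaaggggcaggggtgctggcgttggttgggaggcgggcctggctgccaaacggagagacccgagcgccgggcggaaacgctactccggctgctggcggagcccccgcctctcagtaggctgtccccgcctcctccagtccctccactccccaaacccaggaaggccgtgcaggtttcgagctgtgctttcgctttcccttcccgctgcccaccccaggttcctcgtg

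The 19S cap changed in single genes while its sum stayed level. Of 17 cap genes 3 rose and 4 fell in TGH against NTG (median log2 fold change -0.05). The background over all genes tested was 16% higher and 16.4% lower, together 32.4%. In TGL against NTG 0 cap genes were called by edgeR or DESeq2 (median 0.01, with 3 higher and 1 lower at an unadjusted p under 0.05). The edgeR background of TGL against NTG was 4.15% higher and 2.14% lower, together 6.29%, so 0 calls among 17 genes say little. The summed cap level was 1910, 1840 and 2070 CPM in TGH, 1960, 1960 and 1970 CPM in TGL, against 1970, 2000, 1950 and 1910 CPM in NTG. Psmd11 (ENSMUSG00000017428, GRCm38 chromosome 11, 80428615 to 80473248) encodes a lid subunit that clamps the lid to the base and core. It stood at 171, 163 and 220 CPM in TGH, 130, 119 and 122 CPM in TGL, against 102, 103, 97.8 and 97.6 CPM in NTG, again with 3 separate groups. It rose 1.84-fold in TGH against NTG (0.88 ± 0.10, edgeR adjusted p = 3.6e-05), and TGH exceeded TGL by 0.58 ± 0.10 (edgeR adjusted p = 0.005). Both calls were kept in all leave-one-out fits. Its value in TGL against NTG was 0.31 ± 0.10 (edgeR adjusted p = 0.0888), which passed the threshold without TGH 2 (adjusted p from 0.015 to 0.273 over the leave-one-out fits) and with TGL and NTG fitted alone (edgeR adjusted p = 0.0253). It made up 15.8% of the lid's length-scaled level in TGH, 10.6% in TGL and 8.91% in NTG.

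Among the 6 ATPases of the base, which unfold the substrate, Psmc3 fell and Psmc1 rose. Psmc3 (ENSMUSG00000002102, GRCm38 chromosome 2, 91054009 to 91066369) had levels of 166, 156 and 172 CPM in TGH, 199, 195 and 193 CPM in TGL, against 210, 215, 209 and 209 CPM in NTG. The groups followed each other without overlap, with TGH lowest. It fell by 0.35 ± 0.06 in TGH against NTG (edgeR adjusted p = 0.000981; kept in all leave-one-out fits) and by 0.25 ± 0.06 in TGH against TGL (edgeR adjusted p = 0.0323; lost without TGH 0, TGH 1, NTG 0 or any 1 TGL library, with adjusted p from 0.0347 to 0.132, and in 3 of the 5 other settings, at 0.0658 to 0.0835). Psmc1 rose by 0.24 ± 0.07 in TGH against NTG (edgeR adjusted p = 0.0248), with 140, 127 and 148 CPM in TGH and 118, 123, 119 and 108 CPM in NTG. Its call was lost without TGH 0, TGH 2 or NTG 3 (adjusted p from 0.0185 to 0.0841), and it shares 14.1% of its words with Gm9575 and AC110212.1. The other 4 ATPases lay between -0.22 (Psmc2) and 0.04 (Psmc5) and were not called.

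The remaining cap changes were small. Psmd12, a lid subunit, fell by 0.23 ± 0.07 in TGH against NTG (edgeR adjusted p = 0.0185), with 103 to 106 CPM in TGH and 114 to 131 CPM in NTG. Psmd3, another lid subunit, fell by 0.22 ± 0.07 (edgeR adjusted p = 0.0308), with 90.4 to 99.1 CPM in TGH and 106 to 114 CPM in NTG. Psmd2, the ubiquitin-receptor scaffold of the base, fell by 0.20 ± 0.07 (edgeR adjusted p = 0.0457), and Psmd13 of the lid rose by 0.22 ± 0.08 (edgeR adjusted p = 0.048). The groups of Psmd2 and Psmd13 touched, at 159 to 184 CPM in TGH against 184 to 205 CPM in NTG, and at 65 to 75 CPM in TGH against 57.8 to 65.2 CPM in NTG. None of these 4 calls was kept in every leave-one-out fit. Psmd12 lost it without TGH 1, TGH 2 or NTG 1 (adjusted p up to 0.0554), Psmd3 without TGH 0, TGH 1, NTG 0 or NTG 3 (up to 0.0983), Psmd2 without any library but TGH 2 or NTG 3 (up to 0.148), and Psmd13 without any library but TGH 0 or NTG 1 (up to 0.156). Of the 5 other settings, 4 ended the call of Psmd13 (adjusted p 0.0517 to 0.104), 4 that of Psmd2 (0.0547 to 0.097) and 2 that of Psmd3 (0.0539 to 0.0645). Psmd2 shares 17.8% of its words with Gm5422 and Gm7642.

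**Figure D4:**
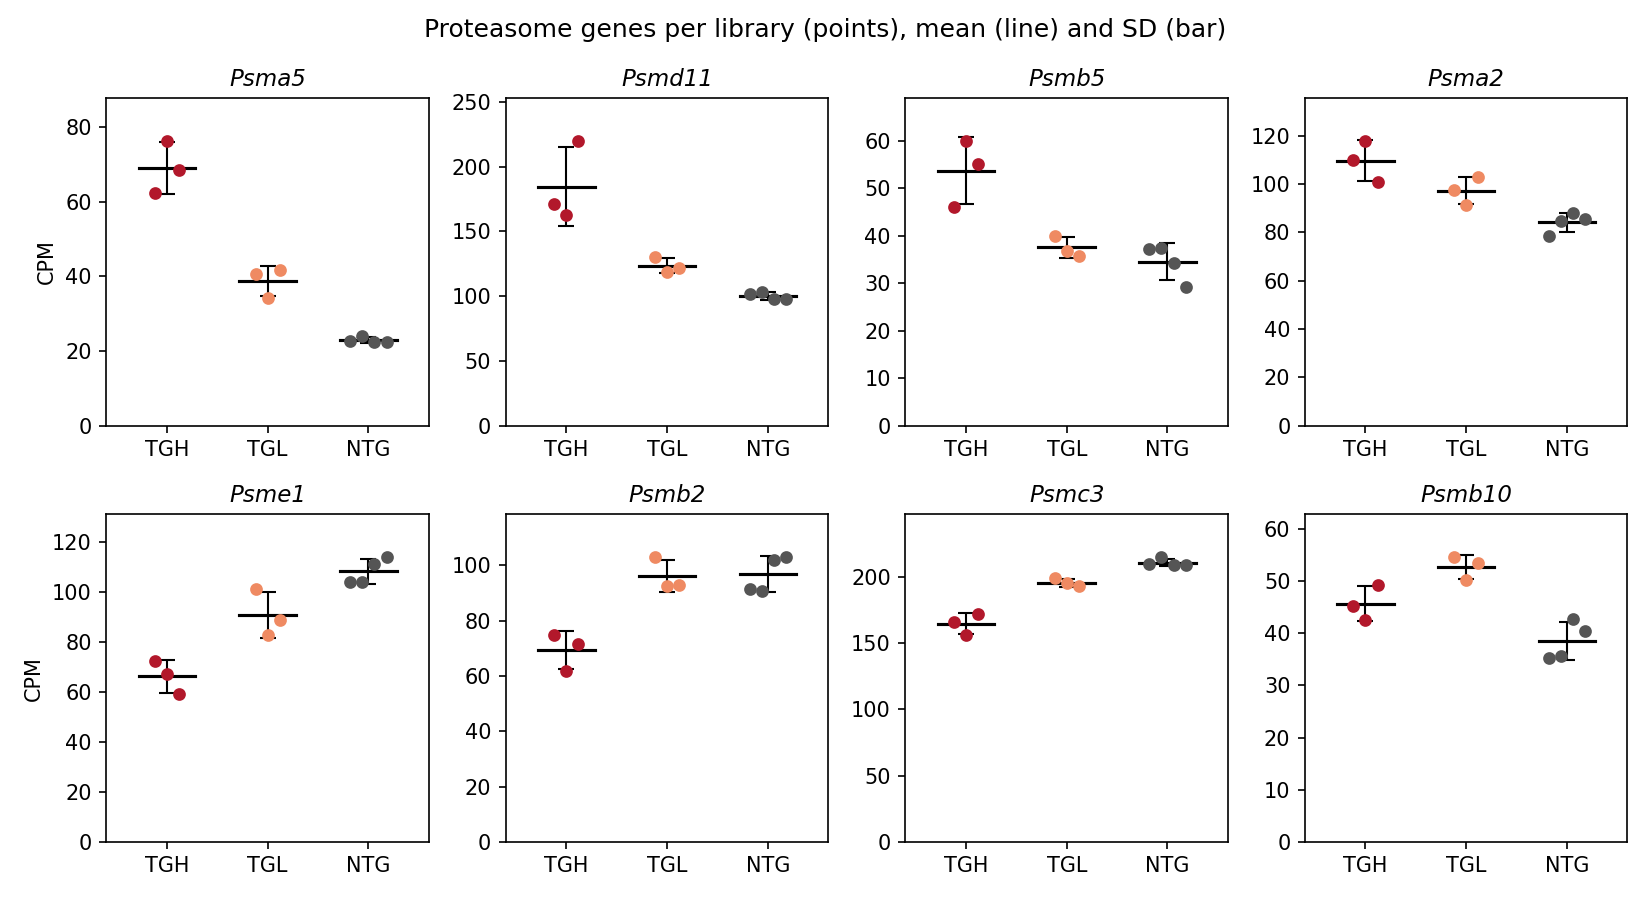
CPM (vertical axis) of 8 genes in each library (points) with group mean (line) and SD (bar), TGH left, TGL middle, NTG right. Psma5 and Psmd11 step down over the 3 groups, Psme1 and Psmc3 step up, Psmb5 and Psmb2 differ in TGH alone, and Psmb10 is highest in TGL at 50.1 to 54.6 CPM. Psmb10 was not called in TGH against TGL.

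The order TGH, TGL, NTG without any overlap was met by few members. Psma5 and Psmd11 had it with TGH highest, which is 2 of 47, beside 4.38% of all genes tested, and Psmc3 and Psme1 had it with TGH lowest, beside 2.38% of all genes.

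Of the 2 immunoproteasome beta genes analysed, Psmb10 rose in TGL against NTG, and Psmb8 was not called in any of the comparisons. Psmb10 (ENSMUSG00000031897, GRCm38 chromosome 8, 105935735 to 105938444), which takes the place of Psmb7 in the immune form, stood at 45.2, 42.6 and 49.2 CPM in TGH, 54.6, 50.1 and 53.4 CPM in TGL, against 35.3, 35.7, 42.8 and 40.4 CPM in NTG. TGL lay above both other groups, while the lowest TGH library lay just under the highest NTG library. It rose in TGL against NTG (0.45 ± 0.09, edgeR adjusted p = 0.0129), which was lost without TGL 0 (adjusted p from 0.0078 to 0.0606 over the leave-one-out fits). In TGH against NTG its value was 0.24 ± 0.09 (edgeR adjusted p = 0.0603), which passed without NTG 2 (adjusted p from 0.0298 to 0.177). TGH against TGL was not called (-0.21 ± 0.10, edgeR adjusted p = 0.22), so the test did not set the 2 lines apart. Psmb8, the immune counterpart of Psmb5, stood at 11.4, 9.08 and 8.32 CPM in TGH, 12.9, 9.8 and 6.69 CPM in TGL, against 11.2, 10.6, 10.9 and 11.1 CPM in NTG, with overlapping groups and no call (-0.19 ± 0.18 in TGH against NTG, edgeR adjusted p = 0.446). Psmb9 and the thymus subunit Psmb11 are not analysed here.

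Genes known to be induced by interferon or to serve antigen presentation are given beside these subunits, as are immune cell markers. Of 22 such genes 2 rose and 6 fell in TGH against NTG (median log2 fold change -0.02). The background over all genes tested was 16% higher and 16.4% lower, together 32.4%. In TGL against NTG 1 of the 22 rose and 0 fell (median -0.23). DESeq2 called 1 higher and 1 lower there, and 1 was higher and 7 lower at an unadjusted p under 0.05. The edgeR background of TGL against NTG was 4.15% higher and 2.14% lower. Igtp, an interferon-induced GTPase, rose by 2.52 ± 0.17 in TGH (edgeR adjusted p = 6.59e-07), whereas B2m, the light chain of class I molecules, fell by 0.65 ± 0.15 (edgeR adjusted p = 0.00653) and Erap1, which trims peptides for them, fell by 0.54 ± 0.10 (edgeR adjusted p = 0.00143). Bst2, an interferon-induced membrane protein, rose by 0.71 ± 0.18 (edgeR adjusted p = 0.0103). The summed level of 9 macrophage markers was 528 to 582 CPM in TGH, 337 to 409 CPM in TGL and 347 to 445 CPM in NTG, with 5 of 9 higher in TGH against NTG. Of 11 lymphocyte markers 1 (Ptprc) passed the count filter, and the T cell genes Cd3e and Cd8a had 11 and 5 counts over all libraries. Fibroblast markers summed to 3080 to 3560 CPM in TGH, 2420 to 3070 CPM in TGL and 2210 to 2460 CPM in NTG (7 of 8 higher in TGH against NTG). Endothelial markers summed to 646 to 768 CPM in TGH, 706 to 962 CPM in TGL and 874 to 937 CPM in NTG (4 of 8 lower in TGH against NTG). Mural markers summed to 1470 to 1940 CPM in TGH, 1440 to 1800 CPM in TGL and 1280 to 2130 CPM in NTG. Of these 8 markers 1 was higher and 2 were lower in TGH against NTG. The part of these cells in the proteasome values was not tested.

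Of the 4 genes for activators that can dock onto the core in place of the cap, Psme1 fell and Psme4 rose in TGH against NTG, and Psme2 and Psme3 were not called. Psme1 (ENSMUSG00000022216, GRCm38 chromosome 14, 55578123 to 55581529) and Psme2 encode the alpha and beta subunits of the 11S activator, which form a mixed ring. Psme1 stood at 72.3, 67.3 and 59 CPM in TGH, 101, 82.6 and 88.7 CPM in TGL, against 104, 104, 111 and 114 CPM in NTG. The 3 groups were separate, with TGH lowest. It fell by 0.71 ± 0.09 on the log2 scale in TGH against NTG (fold 0.611, edgeR adjusted p = 0.000147) and by 0.46 ± 0.10 in TGH against TGL (edgeR adjusted p = 0.0129), and both calls were kept in all leave-one-out fits. Its value in TGL against NTG was -0.25 ± 0.09 (edgeR adjusted p = 0.131). Psme2 stood at 25.4, 26 and 32.3 CPM in TGH, 25.4, 25.3 and 24 CPM in TGL, against 32, 29.1, 30.6 and 25.9 CPM in NTG, with TGH and NTG overlapping (-0.07 ± 0.11, edgeR adjusted p = 0.631). Per kilobase of exon Psme1 stood at 59.5 ± 6.01 CPM per kb in TGH, 81.8 ± 8.64 in TGL and 97.4 ± 4.39 in NTG, and Psme2 at 28.6 ± 3.92, 25.5 ± 0.82 and 30.1 ± 2.69 in TGH, TGL and NTG.

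Psme4, the large nuclear activator PA200, rose by 0.31 ± 0.09 in TGH against NTG (edgeR adjusted p = 0.0175). It stood at 607, 507 and 575 CPM in TGH, 479, 459 and 482 CPM in TGL, against 477, 457, 488 and 394 CPM in NTG, so that TGH lay above both other groups. The call was lost without TGH 0 (adjusted p from 0.0131 to 0.0711). For Psme4 TGH against TGL was not called (0.25 ± 0.09, edgeR adjusted p = 0.12). Psme3, the nuclear 11S subunit, stood at 82, 77.3 and 76.6 CPM in TGH, 84.9, 88.2 and 91.9 CPM in TGL, against 85.1, 88.7, 102 and 87.6 CPM in NTG, with all TGH libraries below the others and no call (-0.21 ± 0.08, edgeR adjusted p = 0.0596). Psme2b and Psmc3ip also met the symbol rule. Psme2b shares 69.3% of its words with other genes, Psme2 foremost, and Psme2 shares 28.3% with Psme2b and a predicted gene, so reads of the 2 genes may be divided between them. Psme2b had -0.24 ± 0.09 in TGH against NTG (edgeR adjusted p = 0.0702). Psmc3ip, a recombination factor and no proteasome part, had 0.20 ± 0.23 (edgeR adjusted p = 0.543). Words shared with other genes also make up 15.4% of Psma3, 14.3% of Psma4, 17.8% of Psmb3, 11.9% of Psmb8 and 17.6% of Psmc3ip. Exons of Psmb7 overlap Nek6 on the opposite strand over 34.9% of their length, and those of Psmg3 overlap Gm26938 over 26.8%.

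Assembly chaperones guide the subunits into place and leave the finished particle. Of the 3 that assemble the base, 2 rose in TGH against NTG (median log2 fold change 0.39), and of the 4 that assemble the core, 0 were called (median 0.14). These 4 gave 0 calls by edgeR, 0 by DESeq2 and 0 at an unadjusted p under 0.05. Of all genes tested 16% were higher and 16.4% lower in TGH against NTG. Psmd5 stood at 23, 29.6 and 34.4 CPM in TGH, 24.6, 22.1 and 21.2 CPM in TGL, against 19.1, 21.6, 19.4 and 22 CPM in NTG. Every TGH library lay above NTG, and TGH 0 lay among TGL. It rose by 0.50 ± 0.13 against NTG (edgeR adjusted p = 0.0123), which was lost without TGH 2 (adjusted p from 0.00206 to 0.0527). Psmd10, also known as gankyrin, rose by 0.39 ± 0.13 (edgeR adjusted p = 0.0363), with 14.3 to 15.6 CPM in TGH, 10.8 to 14 CPM in TGL and 9.57 to 12.5 CPM in NTG. Its call was lost without any 1 TGH library, NTG 0, NTG 1 or NTG 2 (adjusted p from 0.0268 to 0.119) and in 2 of the 5 other settings (0.0605 with DESeq2 and 0.0813 with NTG 2 and TGL 2 left out together). Psmd9 stood at 20 to 21.9 CPM in TGH, 14.4 to 16.2 CPM in TGL and 15.9 to 21.3 CPM in NTG. It was higher in TGH than in TGL (0.44 ± 0.12, edgeR adjusted p = 0.0433), with TGH and NTG overlapping. That call was lost without any library but NTG 0 or NTG 2 (adjusted p from 0.0324 to 0.131) and in 3 of the 5 other settings (0.0505 to 0.0992). Of the words of Psmd9 24.9% occur in other genes, among them Reps1 and Ints7. In TGH against TGL Reps1 was higher (0.77 ± 0.13, edgeR adjusted p = 0.00303) and Ints7 was not called (0.40 ± 0.16, edgeR adjusted p = 0.141). Whether shared reads bear on the call of Psmd9 was not tested.

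Genes of the ubiquitin-proteasome pathway outside the 6 symbol families were followed from a separate list, of which 31 genes are given. In TGH against NTG 8 rose and 4 fell (median log2 fold change 0.11). The background over all genes tested was 16% higher and 16.4% lower, together 32.4%. In TGL against NTG 0 of the list were called by edgeR and 0 by DESeq2, with 2 higher and 5 lower at an unadjusted p under 0.05. There edgeR called 6.29% of all genes tested. Pomp, the maturation factor of the core, stood at 117, 118 and 109 CPM in TGH, 94.1, 91.8 and 85.7 CPM in TGL, against 78.5, 86.3, 72.8 and 84.1 CPM in NTG. TGH lay above both other groups, and it rose by 0.51 ± 0.08 against NTG (edgeR adjusted p = 0.00043). Akirin2, which brings proteasomes into the nucleus, rose by 0.47 ± 0.09 (edgeR adjusted p = 0.00303), with 48.2 to 60.9 CPM in TGH, 36.6 to 40.5 CPM in TGL and 36.1 to 42.1 CPM in NTG. Nfe2l1 stood at 545, 549 and 506 CPM in TGH, 633, 634 and 672 CPM in TGL, against 701, 700, 688 and 621 CPM in NTG. This transcription factor gene fell by 0.35 ± 0.07 in TGH against NTG (edgeR adjusted p = 0.00262) and by 0.28 ± 0.07 in TGH against TGL (edgeR adjusted p = 0.0327). Sem1, a small subunit of the lid whose symbol falls outside the rule, stood at 152, 161 and 131 CPM in TGH, 136, 144 and 125 CPM in TGL, against 97.5, 120, 107 and 112 CPM in NTG. It rose by 0.44 ± 0.09 in TGH against NTG (edgeR adjusted p = 0.00406), with every TGH library above every NTG library. The 16 heat shock genes had 0 higher and 4 lower in the same comparison (median -0.83).

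**Figure D5:**
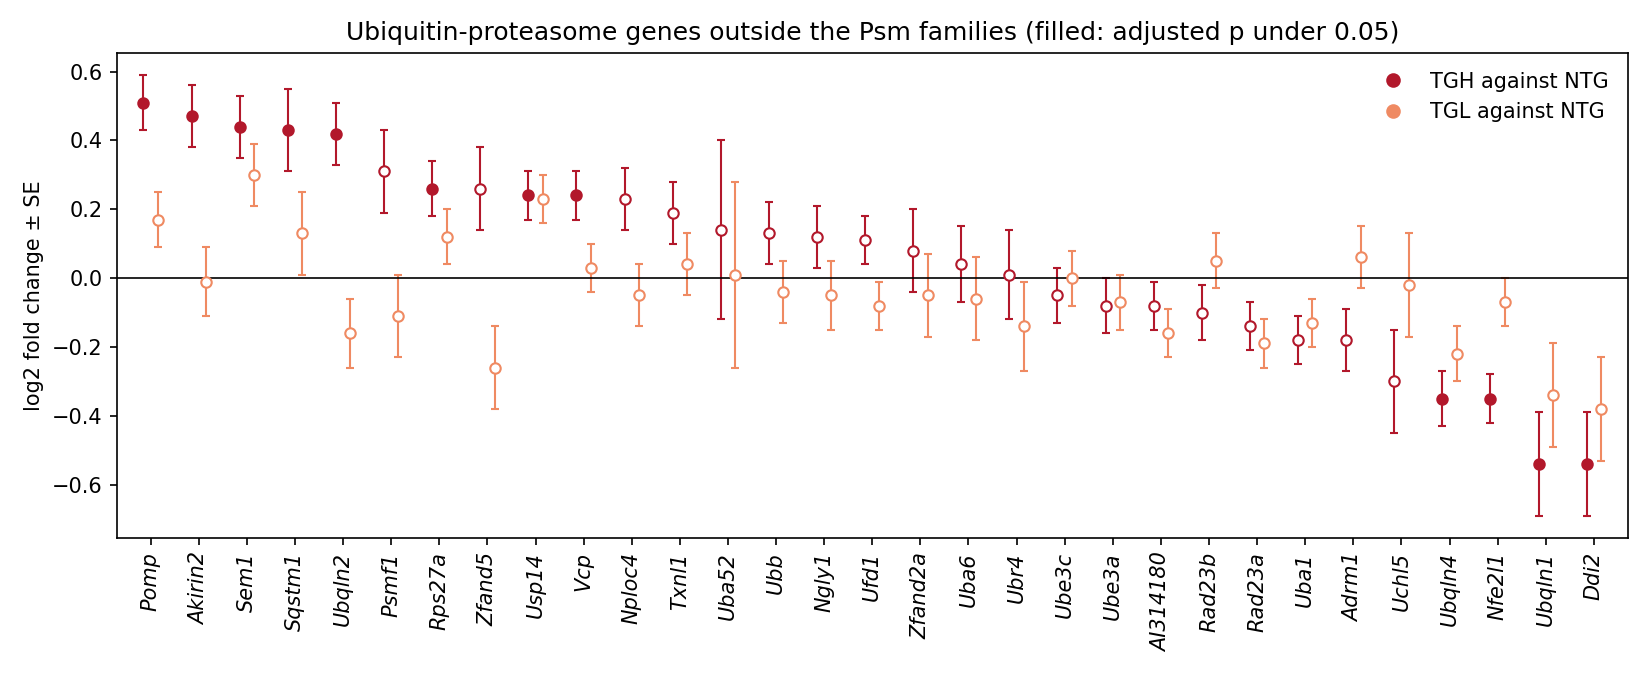
Log2 fold change with its standard error (vertical axis) of 31 tested pathway genes outside the 6 symbol families, ordered by their value in TGH against NTG (dark) beside TGL against NTG (light), with filled points at an adjusted p under 0.05. Pomp is highest at 0.51 and Ddi2 and Ubqln1 lowest at -0.54 in TGH, and no TGL point is filled.

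For scale, 12 classical Nrf2 target genes were read in the same fit. In TGH against NTG 10 rose and 0 fell, with a median log2 fold change of 1.95, and in TGL against NTG 7 rose and 0 fell, with a median of 0.83. Beside these medians Psma5 had 1.59 and 0.76, and Psmd11, next in size among the proteasome genes in TGH against NTG, 0.88 and 0.31.

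The submitters compared both lines together with NTG, and the same comparison was fitted here with 2 groups. Of the 47 genes 5 rose and 1 fell (12.8%, beside 17.4% of 14265 genes tested, 9.34% higher and 8.03% lower), and 4 lay above and 4 below NTG without overlap (backgrounds 7.68% and 6.38%, together 14.1%). Psma5 rose by 1.24 ± 0.22 (edgeR adjusted p = 0.0044), Psmd11 by 0.62 ± 0.16 (0.0213), Psmb10 by 0.35 ± 0.09 (0.0232), Psma2 by 0.30 ± 0.08 (0.0235) and Psma7 by 0.26 ± 0.07 (0.0354), and Psme1 fell by 0.46 ± 0.13 (0.0302), each with edgeR's adjusted p. Psma5 was the call kept in every leave-one-out fit, and Psma7 was not called without the low-count filter (0.0523). The count was 1 without NTG 0 or NTG 1, 3 without TGH 0 or NTG 3 and 10 without TGL 2. It was 13 with the lines kept as separate groups in the fit and 9 with DESeq2. The share of all genes called in these other fits is not given, so the counts are no result about the members alone. In the authors' deposited table for this comparison 6 of the 47 genes are higher and 3 lower at an adjusted p under 0.05 (19.1%, beside 17% of the 17099 genes with an adjusted p there), and Psma5 has a log2 fold change of 1.25 with an adjusted p of 1.55e-06 in the authors' deposited table.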

How the data were processed

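RNA of left ventricle was sequenced from 10 libraries (3 TGH, 3 TGL, 4 NTG). Per the submitters' processing notes, the tools were bcl2fastq 1.8.4, Trim Galore 0.4.0, Novoalign, SAMtools and DESeq2 1.18.1, on mm10 (GRCm38). Counter, annotation and strand setting were not given in the sources used here. Each library has 1 raw count per gene in the table deposited by the authors. Per the file headers, the authors' comparison of TG with NTG stands beside them as a signal (baseMean), log2 fold change, its error, a score (stat), p-value and adjusted p-value. No column of per-sample values was left unused (0).

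The 47 members, the role lists and the tests were chosen with earlier results of these data known. Named are all members called in any of the 4 comparisons, the immunoproteasome and activator genes, Psma8 and Psmc3ip, the ends of each group's range, and up to 4 genes of each outside list by adjusted p in TGH against NTG. The few cell type markers named were not chosen by this rule. One gene of the pathway list is not reported here. Psma3, Psmb6, Gm12989, Gm8394, Reps1 and Ints7 were added after their values were seen. Counts were tested with edgeR 4.0.16 in R 4.3.3: filterByExpr by group, TMM scaling (factors 0.94 to 1.076), quasi-likelihood F test, and Benjamini-Hochberg adjustment over all tested genes with a threshold of 0.05. TGH, TGL and NTG shared 1 fit (biological coefficient of variation 13.9%), while the fit of TG against NTG had 2 groups (17.1%). The SE is the absolute log2 fold change divided by the root of F, and SD is between libraries. Exon lengths, shared 50-base words (named above 10%, for the 47 members only) and overlaps came from GENCODE M21 on GRCm38. Gene positions are those of the deposited table. Alternatives were DESeq2 1.42.0, RLE scaling, no low-count filter, other groups in the fit, the replicate number as a block, and leaving out libraries. The code was tested on simulated data. Libraries of a group correlated at r = 0.972 to 0.99 and differed by more than counting noise, so none was treated as a repeat deposit. Whether they are separate mice was not tested.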

Additional observations from a re-analysis of the deposited data

Results flagged for a closer look

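In TGH against TGL 8 of the 47 proteasome genes differed (17%, beside 9.64% of all genes tested). For these 8 the contrasts of the lines with NTG differ by a test of the difference itself (edgeR, adjusted over all genes). The log2 differences were 0.83 for Psma5, 0.58 for Psmd11, 0.52 for Psmb5, 0.44 for Psmd9, 0.40 for Psmb4, -0.25 for Psmc3, -0.46 for Psme1 and -0.47 for Psmb2. Of these, Psma5, Psmd11, Psme1 and Psmb2 were called in all 10 leave-one-out fits, and the others were not. Psmd9 was not called against NTG in either line (edgeR adjusted p = 0.146 in TGH and 0.302 in TGL).

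A check for a library far from its group was run in NTG, which has 4 libraries. Psma1 stood at 138 CPM in NTG 0 and at 130 CPM in each of the other 3, a gap of 0.982 of the range. This passes the 95% critical value of Dixon's test, which chance passes in about 1 of 20 groups, and 1 of the 47 genes passed it.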

How the results depend on the processing

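Counts of called proteasome genes in TGL against NTG, TGH against NTG, TGH against TGL and TG against NTG were 2, 17, 8 and 6 as reported, 2, 16, 8 and 6 with RLE scaling, 2, 15, 7 and 9 with DESeq2, and 2, 14, 6 and 5 without the low-count filter. With other groups in the fit they were 3, 14, 6 and 13, with NTG 2 and TGL 2 left out together 2, 15, 5 and 7. Leaving out 1 library gave 1 to 3, 10 to 15, 4 to 8 and 1 to 10. With the replicate block they were 2, 11, 7 and 1, without Psma7, Psmc1, Psmd3, Psmd10, Psmd12 and Psmd13 in TGH against NTG, Psmc3 in TGH against TGL and all but Psma5 in TG against NTG. The numbers pair nothing in the labels, and deviations of same-numbered libraries correlated at 0.15, 0.0625 and 0.335 between TGH and TGL and at -0.0525 to 0.0146 in the other pairs, with 4 of 18 best with their own number. Shares of all genes called in the alternative fits are not given, so a moved count need not be particular to the members. For the named genes no alternative reversed a direction past the threshold. Of their values 1396 kept their side of the threshold, 121 lost a call and 19 gained one, the cause was not tested, and RLE scaling moved the median of all genes by at most 0.008 and the other settings by at most 0.015. Depth limits Psma8, Psmc3ip and Psmg3, which stood at a few CPM.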
